A study of Mus musculus with 8 samples.

Results

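Non-muscle myosin II is described here at the level of 10 genes, namely the heavy chains Myh9, Myh10 and Myh14, the essential light chain Myl6, the regulatory light chains Myl9, Myl12a and Myl12b, the myosin phosphatase subunits Ppp1r12a and Ppp1cb, and the light chain kinase Mylk. They were taken by symbol from a table of 57180 genes and correspond to 11 gene identifiers, because Myl12b has a second identifier. All 11 passed the filter on low counts that left 15660 genes for testing. The samples are muscle stem cells, from which skeletal muscle regenerates, purified by FACS from mice and used fresh. Control libraries (genotype label WT, replicates 2, 5, 7 and 8) were compared with libraries from SC-RhoAfl/+ mice (titled RhoA het and labelled RhoA knockdown, replicates 5, 6, 7 and 8), in which 1 RhoA allele is floxed. The stated purpose was to find which transcripts change when RhoA activity is reduced. The Cre line, the age and the number of animals behind each library are not given in the sources used here, so the p-values measure the spread between libraries, which may be technical.

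The libraries held 19138763 to 25606342 fragments assigned to genes. All 10 listed muscle stem cell markers were detected, with Pax7 at 112 to 176 CPM in control and 78.5 to 106 CPM in RhoA het (CPM is the assigned fragments of a gene scaled for library size with TMM factors). The Pax7 groups did not overlap, as was so for 1.81% of all tested genes. Pax7 had a log2 fold change of -0.51 (unadjusted p 0.0173, adjusted p 1 in edgeR), and -0.65 with the replicate number as a block (unadjusted p 0.000181, adjusted p 0.143). In edgeR 2.38% of all tested genes had an unadjusted p under 0.05, and 5.26% with the block. Of the 10 markers 4 were higher in RhoA het by sign and 6 lower, with a median log2 fold change of -0.01. Among the 8 fibro-adipogenic markers, Pdgfra was at 1.75 to 13.6 CPM, Ly6a at 2.64 to 49.7 and Lum at 13.6 to 119. Dcn was at 287 to 2041 CPM, Dpt at 304 to 583, Gsn at 2415 to 5776 and Col1a1 at 340 to 3150. The matrix gene Col3a1, which is not restricted to those cells, was at 1260 to 6818 CPM. With the block 0 of 8 passed in edgeR, and 3 were higher in RhoA het and 0 lower at an unadjusted p under 0.05.

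Non-muscle myosin II is a motor made of a pair of heavy chains, each carrying an essential and a regulatory light chain. It assembles into short bipolar filaments that pull on actin. Phosphorylation of the regulatory light chain switches the motor on. Calcium and calmodulin act through the kinase MLCK, the product of Mylk. RhoA acts through its kinases ROCK1 and ROCK2, which phosphorylate the light chain and also inhibit the phosphatase that reverses the step. That phosphatase consists of the catalytic subunit encoded by Ppp1cb and the targeting subunit MYPT1 encoded by Ppp1r12a. RNA levels report neither the phosphorylation nor the assembly of the motor.

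The regulatory light chains are shown first because their likeness bears on how they could be counted. The stretch below (GENCODE release M21 transcripts, coding bases 37 to 81, 5′ to 3′) spans the site that MLCK and ROCK phosphorylate, and the capitals mark the codons of its adjacent threonine and serine.
Myl9: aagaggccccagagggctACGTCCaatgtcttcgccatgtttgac
Myl12a: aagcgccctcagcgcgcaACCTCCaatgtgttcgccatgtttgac
Myl12b: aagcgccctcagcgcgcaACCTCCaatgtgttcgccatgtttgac
In this stretch Myl12a and Myl12b shared 45 of 45 bases, and Myl9 and Myl12a shared 37 of 45. Over the whole coding sequence of 519 bases Myl12a and Myl12b were 96.5% identical, and 177 of the 470 possible windows of 50 bases in Myl12a also occurred in Myl12b. Myl9 was 85.5% identical to Myl12a and 86.3% identical to Myl12b, with 0 shared windows of that length.

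The annotation of Myl12a and Myl12b bears on their counts too. Myl12a (ENSMUSG00000024048.16, mm39 chromosome 17, 71300651 to 71309873) and Myl12b (ENSMUSG00000034868.10, chromosome 17, 71280128 to 71297885) lie next to each other on the minus strand. The second Myl12b identifier (ENSMUSG00000117098.2, 71281114 to 71309203) spans both, and all of its 1201 exonic bases are also exon of another gene. It shares 739 of the 2770 exonic bases of Myl12b. In the GRCm38 annotation of release M21, it covers all 519 coding bases of Myl12b and 346 of the 519 of Myl12a. The counting command set no option to count a fragment for several genes, so fragments over shared exons could be left out or given to either identifier. The deposited counts were 113 to 150 fragments a library for Myl12b, 161 to 245 for its second identifier and 9750 to 14369 for Myl12a. How far shared exons, reads that map to several places or low expression set the Myl12b counts was not tested. Among the other members, exons shared with another gene made up 17.5% of Ppp1cb, 6.85% of Mylk, 2.22% of Myh10 and 0.828% of Myh14, and the counting did not use strand.

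Levels of different genes are compared in TPM, the deposited unit that divides by gene length. Myl12a was the most abundant member, with a median of 513 TPM over the 8 libraries, followed by Myl6 at 316, Myl9 at 206, Ppp1cb at 146 and Ppp1r12a at 70.4. Then came Myh9 at 32.5, the second Myl12b identifier at 25.3, Myh14 at 19.8, Mylk at 10.7, Myh10 at 8.00 and Myl12b at 6.87. The places of Myl12a and Myl12b in this order carry the limit on their counting given above. In the order of the control means, neighbouring ranges were separate at 2 steps only, Myl12a over Myl6 and Ppp1r12a over Myh9. At each of the other steps the ranges over the 8 libraries overlapped, although Myl9 exceeded Ppp1cb, and Ppp1cb exceeded Ppp1r12a, within each of the 8 libraries.

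**Figure D1:**
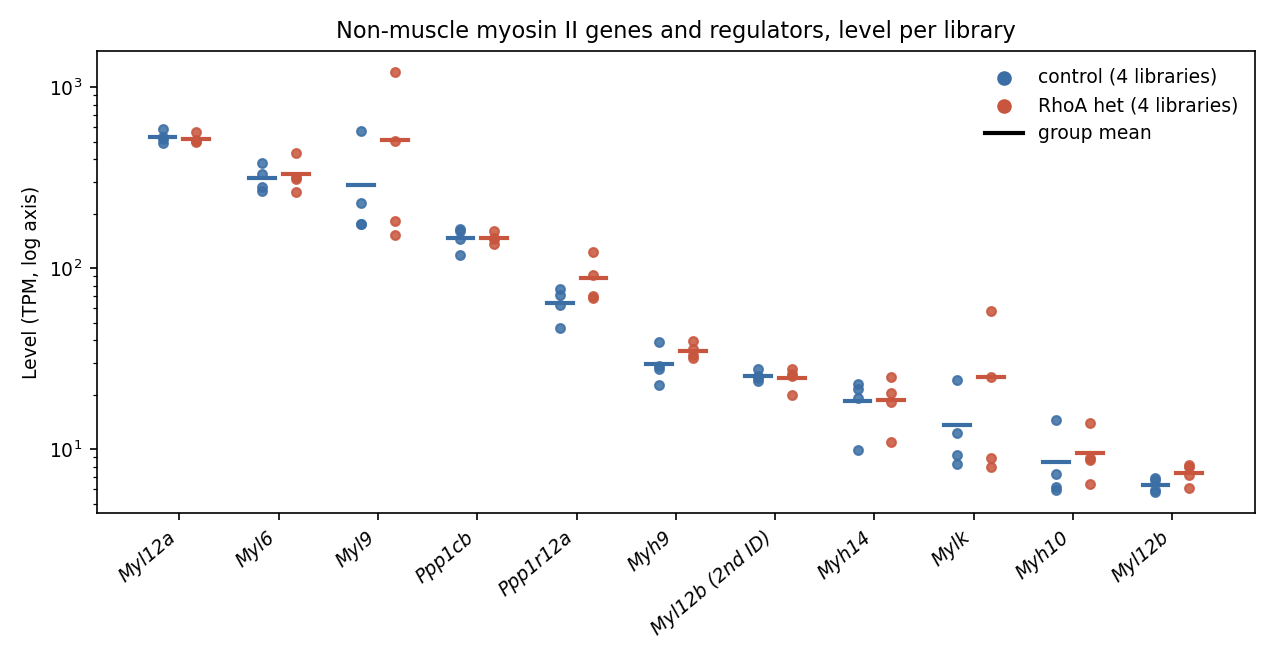
Level of each gene identifier in TPM on a log axis, with a point for each library (4 control in blue, 4 RhoA het in red) and a bar at the group mean, ordered by the control mean. Myl9 runs from 152 to 1216 TPM and Mylk from 7.99 to 58.2 TPM, while Myl12a stays between 492 and 584 TPM.

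Heavy chains carry the motor head and the rod that forms the filament. Myh9 (ENSMUSG00000022443.18, mm39 chromosome 15, 77644787 to 77726375), which encodes the IIA chain, was the most abundant of the set in every library. Its levels were 22.7, 39.0, 27.7 and 28.9 TPM in control replicates 2, 5, 7 and 8, and 33.2, 39.5, 31.8 and 35.6 TPM in RhoA het replicates 5, 6, 7 and 8. The groups overlapped, with control replicate 2 lowest and control replicate 5 close to the highest RhoA het library. On the CPM scale, after TMM scaling, the Myh9 mean was 121 ± 14.6 for controls and 138 ± 20.1 for RhoA het (SD, n = 4 per group). The log2 fold change, RhoA het over control, was 0.19 (SE 0.14, 95% interval -0.13 to 0.50), with an adjusted p of 1 in edgeR's quasi-likelihood test and a two-sided exact permutation p of 0.229. RhoA het replicate 6, the library with the highest Myh9 at 166 CPM, also held the most RNA of endothelial markers. Its 10 listed markers summed to 672 CPM, against 73.5 to 167 CPM in the control libraries and 112 to 143 CPM in the other RhoA het libraries. None of those 10 was at 0 in all libraries, and their part in the Myh9 values was not tested. In bulk samples more cells of a type and more RNA per cell cannot be told apart. Without that library the Myh9 log2 fold change was 0.08.

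Myh14 (ENSMUSG00000030739.20, chromosome 7, 44255227 to 44320267), the IIC chain, was the next heavy chain by TPM in every library. Control libraries held 9.86, 22.8, 21.5 and 19.2 TPM and RhoA het libraries 18.2, 10.9, 25.1 and 20.4 TPM. The low libraries were control replicate 2 and RhoA het replicate 6, at 27.7 and 25.8 CPM against 38.0 to 54.6 CPM in the other 6. These were also the libraries with reads from Y-linked genes (14358 and 14659 fragments over 4 genes, at most 2 elsewhere) and almost none from Xist. Each group held 1 such library, and the part of sex in the Myh14 level was not tested. Across all tested genes, 6.29% had their lowest 2 values in the same libraries. Between genotypes Myh14 differed by a log2 fold change of -0.03 (SE 0.24, interval -0.57 to 0.52, adjusted p 1 in edgeR).

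Myh10 (ENSMUSG00000020900.16, chromosome 11, 68582385 to 68707458) encodes the IIB chain. Its levels were 6.21, 14.4, 7.33 and 5.97 TPM in control and 14.0, 6.42, 8.95 and 8.67 TPM in RhoA het. In both groups replicate 5 was the highest, at 42.2 and 42.1 CPM, and the other 6 libraries lay between 20.4 and 28.1 CPM. The same libraries held the most RNA of dividing cells. All 12 listed genes, among them Mki67 and Top2a, had their highest values there. They summed to 380 CPM in control replicate 5 and 238 CPM in RhoA het replicate 5, and to at most 40.9 CPM elsewhere. Of all tested genes 11.3% had their 2 highest values in these libraries, and among the 11 member identifiers Myh10 alone. So did 2 of 8 fibro-adipogenic markers (Col1a1 and Col3a1), 2 of 10 muscle stem cell markers and 1 of 12 muscle fibre markers. The part of cell division in the Myh10 level was not tested. The genotype difference was a log2 fold change of 0.11 (SE 0.27, interval -0.49 to 0.71, adjusted p 1 in edgeR). It turned to -0.11 without RhoA het replicate 5 and was 0.37 without control replicate 5.

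**Figure D2:**
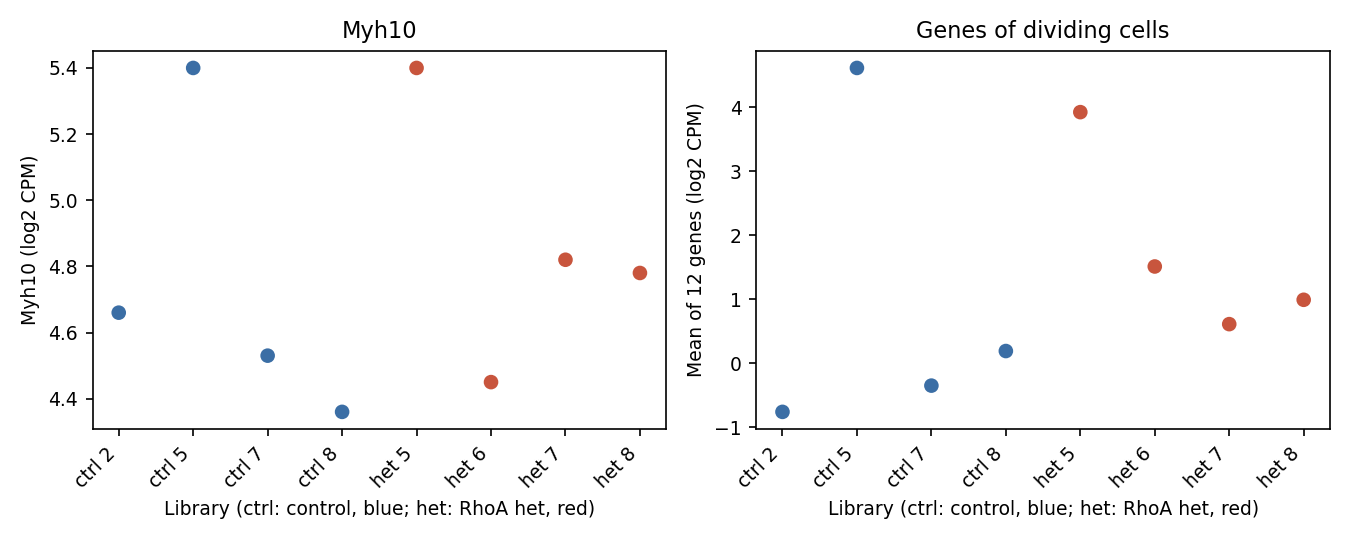
Myh10 (left) and the mean of 12 genes of dividing cells (right) in log2 CPM for each library, control in blue and RhoA het in red. Replicate 5 of each group is highest in both panels.

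As shares of the summed heavy chain TPM, Myh9 made up 53.0% ± 4.09 in control and 55.9% ± 9.48 in RhoA het, Myh14 32.2% ± 5.65 and 29.2% ± 7.86, and Myh10 14.7% ± 3.46 and 14.9% ± 4.45 (SD, n = 4 each). The Myh10 share differed by 0.188 percentage points between the groups, with a two-sided exact permutation p of 0.886. Summed heavy chains ranged from 38.8 TPM in control replicate 2 to 76.2 TPM in control replicate 5.

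**Figure D3:**
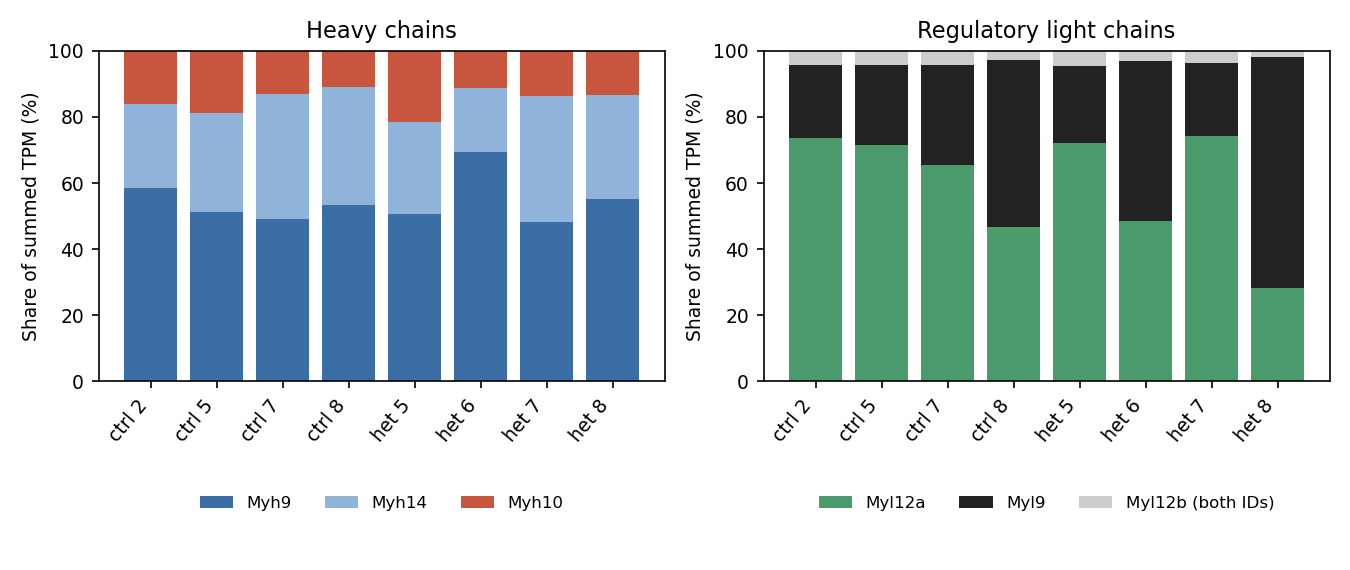
Share of each gene in the summed TPM of the heavy chains (left) and the regulatory light chains (right), per library, with bars adding to 100%. The Myl9 part of the regulatory light chains is 50.7%, 48.3% and 69.7% in control replicate 8 and RhoA het replicates 6 and 8, and at most 30.4% in the other libraries.

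Myl6 (ENSMUSG00000090841.3, chromosome 10, 128326729 to 128330014) encodes the essential light chain that stabilises the lever arm of the motor. It stood at 330.1, 266, 279.6 and 380.3 TPM in control and 311, 319.6, 263 and 430.0 TPM in RhoA het. Replicate 8 was the highest library of each group, and the groups overlapped throughout. Its log2 fold change came to -0.03 (SE 0.22, 95% interval -0.53 to 0.46, adjusted p 1 in edgeR). Regulatory light chain TPM, summed over Myl9, Myl12a and both Myl12b identifiers, exceeded that of Myl6 in every library, by 2.40-fold to 4.06-fold, and Myl6 exceeded the summed heavy chains by 3.49-fold to 8.51-fold. The regulatory light chain sum leaves out any Myl12a and Myl12b fragments lost in counting, so it may be too low and the Myl9 share of it too high, by an amount that was not tested.

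Among the regulatory light chains Myl12a varied little. It was at 584, 516, 492 and 527 TPM in control and 564, 504, 511 and 495 TPM in RhoA het, so the groups lay over each other. That gave a log2 fold change of -0.13 (SE 0.16, 95% interval -0.49 to 0.23, adjusted p 1 in edgeR). Myl12b, by its first identifier, was at 5.76 to 6.96 TPM in control and 6.09 to 8.14 TPM in RhoA het, a log2 fold change of 0.12 (SE 0.19, adjusted p 1 in edgeR). For its second identifier the ranges were 23.8 to 27.8 and 20.0 to 27.7 TPM, with a log2 fold change of -0.14 (SE 0.20, adjusted p 1 in edgeR).

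Myl9 and Mylk behaved differently from the rest of the set, in that their levels spread widely within both groups. Myl9 (ENSMUSG00000067818.7, chromosome 2, 156617340 to 156623578) encodes the regulatory light chain that is abundant in smooth muscle. In control replicates 2, 5, 7 and 8 it was at 176, 175, 229 and 574 TPM, and in RhoA het replicates 5, 6, 7 and 8 at 183, 503, 152 and 1216 TPM. Mylk (ENSMUSG00000022836.12, chromosome 16, 34565580 to 34822790) encodes the light chain kinase. Its levels were 8.32, 9.27, 12.2 and 24.2 TPM in control and 8.93, 25.0, 7.99 and 58.2 TPM in RhoA het. For both genes control replicate 8 and RhoA het replicates 6 and 8 were the high libraries, and the other 5 lay close together whatever their genotype. Over the 8 libraries the SD of log2 CPM was 1.11 for Myl9 and 1.04 for Mylk, larger than for 95.6% and 94.9% of tested genes. For the remaining members it was between 0.19 and 0.40, beside a median of 0.33 over all tested genes.

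The level of Myl9 changed 8.01-fold from the lowest to the highest library and that of Mylk 7.29-fold, yet their TPM ratio stayed between 18.7 and 23.7. Mylk was in turn the gene whose pattern was most like Myl9 among 3404 genes compared. The measure of likeness was the root mean square difference of log2 CPM over the 8 libraries after centring each gene, and for this pair it was 0.10. Next to Myl9 came Pcp4l1 at 0.16 and Cox4i2 at 0.17. Next to Mylk, after Myl9, were Cox4i2 at 0.11 and Cnn1, the calponin gene of smooth muscle, at 0.19. Cnn1 is also on the list of mural and smooth muscle markers fixed for these samples. Myh9 and Myh10 had other neighbours. For Myh9 they were Stx7, Elmo2 and Lrch3, at 0.05 to 0.07, and for Myh10 they were Tmf1, Ptk7 and Edem3, at 0.12 to 0.13. With so many genes compared over 8 libraries, close neighbours occur for any gene.

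RNA of smooth muscle and mural cells, the contractile cells around vessels, was highest in the same libraries as Myl9 and Mylk. Myh11, the smooth muscle myosin heavy chain, was at 31.1, 18.2, 42.0 and 124 CPM in control and at 21.7, 124, 20.4 and 306 CPM in RhoA het. By the same measure of likeness it ranked 83 among 3404 genes for Myl9, at 0.41. For Mylk it ranked 151 among 3771 genes, at 0.46. The 11 listed markers summed to 925 to 1387 CPM in control libraries and 870.2 to 2595 CPM in RhoA het, and none was at 0 in all libraries. In RhoA het replicate 8 the highest value was reached by 8 of the 11. Control replicate 8 and RhoA het replicates 6 and 8 were the 3 highest libraries for 4 of the 11 (Pdgfrb, Myh11, Tagln and Cnn1). They were so for 4.77% of all tested genes. Among the 11 member identifiers they were so for 2, Myl9 and Mylk, from which the order was read, so that count tests nothing. The same order held for 2 of 10 endothelial markers and 2 of 5 Schwann cell markers. It was not shared by every mural marker. Named after their values were seen, Acta2 was second highest in control replicate 5 and Notch3 was highest in control replicate 2. The part of these cells in the Myl9 and Mylk values was not tested. The muscle stem cell markers, 10 of 10 detected, had mean log2 CPM between 8.21 and 9.01 in all libraries, lowest in the replicates 8.

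**Figure D4:**
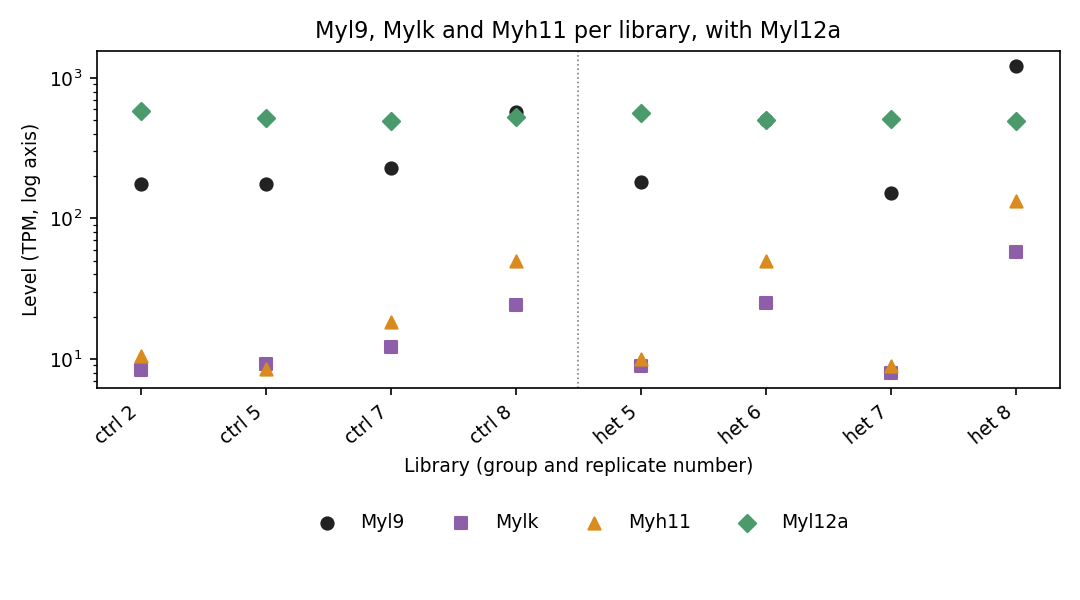
Level in TPM on a log axis of Myl9, Mylk, the smooth muscle gene Myh11 and Myl12a in each library, control left and RhoA het right of the dotted line. Myl9, Mylk and Myh11 are high in control replicate 8 and RhoA het replicates 6 and 8, while Myl12a is level; in RhoA het replicate 6 the Myl9 point (503 TPM) lies under that of Myl12a (504 TPM).

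Between genotypes, the mean of Myl9 was 108 ± 74.0 CPM for controls and 182 ± 174 CPM for RhoA het (SD, n = 4 per group). The fitted log2 fold change was 0.75 (SE 0.67, 95% interval -0.75 to 2.25). For Mylk the means were 49.0 ± 27.3 and 86.2 ± 80.0 CPM, and the fit gave 0.81 (SE 0.63, 95% interval -0.59 to 2.22). Neither passed (adjusted p 1 in edgeR, exact permutation p 0.686 and 0.657), and both differences rested on RhoA het replicate 8. Without that library the log2 fold change was -0.10 for Myl9 and 0.0018 for Mylk. Leaving out control replicate 8 gave 1.34 and 1.27. Leaving out all 3 libraries with the highest Myh11, an alternative added after the values were seen, gave -0.34 and -0.35, with adjusted p 1 in edgeR. Within the numbered pairs the log2 difference of Myl9 was 0.10 for replicate 5, -0.59 for replicate 7 and 0.96 for replicate 8, so the direction was not shared. The Myl9 share of regulatory light chain TPM was 31.9% ± 13.03 in control and 40.9% ± 22.7 in RhoA het (SD, n = 4 each), with an exact permutation p of 0.686. Both shares carry the limit on Myl12a and Myl12b counting.

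Since Myl9 set itself apart from the other regulatory light chain genes in these libraries, its promoter is shown. CArG boxes, the binding motif of serum response factor, which controls many contractile genes, were searched on both strands in windows running from 250 bases before to 50 after each RefSeq gene start (GRCm38.p6). Of the 11 windows of the 10 members, 2 held a CArG box, printed below on the gene strand from 5′ to 3′ with the box in capitals. Of all 32851 windows 1.63% held one.
Myl9, chr2:156775214-156775513, plus strand: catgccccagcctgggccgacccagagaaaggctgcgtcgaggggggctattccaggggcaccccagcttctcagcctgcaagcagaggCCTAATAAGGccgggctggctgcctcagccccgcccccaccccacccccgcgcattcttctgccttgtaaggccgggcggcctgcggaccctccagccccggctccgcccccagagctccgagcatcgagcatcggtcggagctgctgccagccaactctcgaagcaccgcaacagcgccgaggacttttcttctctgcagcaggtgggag
Myl6, chr10:128492960-128493259, minus strand: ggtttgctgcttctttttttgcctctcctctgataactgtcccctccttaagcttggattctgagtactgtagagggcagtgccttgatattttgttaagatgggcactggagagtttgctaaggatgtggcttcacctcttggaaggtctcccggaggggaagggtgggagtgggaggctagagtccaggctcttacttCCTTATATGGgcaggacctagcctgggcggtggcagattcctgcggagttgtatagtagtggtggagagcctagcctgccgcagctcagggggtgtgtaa
In Myl9 the box ended 151 bases before the start. In Myl6 it stood before the downstream of its 2 annotated starts, ending 40 bases upstream. The 1 window searched for Mylk held none, and the rest of that gene was not searched. A match is a stretch of letters and says nothing of binding in these cells.

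The myosin phosphatase members came next. Ppp1r12a (ENSMUSG00000019907.11, chromosome 10, 107998054 to 108120336), the targeting subunit that ROCK phosphorylates, was at 46.7, 77.1, 62.5 and 70.7 TPM in control and 91.3, 68.1, 70.05 and 123 TPM in RhoA het. Control replicate 2 was the lowest library and RhoA het replicates 5 and 8 were above every control library, but replicates 6 and 7 lay within the control range. Its mean was 163 ± 19.2 CPM for controls and 213 ± 58.0 CPM for RhoA het (SD, n = 4 per group), 1.31-fold higher by the fit. The log2 fold change of 0.38 (SE 0.19, interval -0.04 to 0.81) had the smallest unadjusted p of the set, 0.0695, with an adjusted p of 1 in edgeR and an exact permutation p of 0.143. It was higher in RhoA het in 3 of 3 numbered pairs, by 0.28, 0.17 and 0.67 on the log2 scale for replicates 5, 7 and 8, as were 13.6% of all tested genes. The other member with that pattern was Myl12b, at 0.09, 0.03 and 0.14. Without RhoA het replicate 8 the Ppp1r12a log2 fold change was 0.18.

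Ppp1cb (ENSMUSG00000014956.16, chromosome 5, 32616187 to 32674777), the catalytic subunit of the same phosphatase, was at 164, 159, 119 and 145 TPM in control and 144, 137, 147 and 161 TPM in RhoA het. The RhoA het range lay inside that of the controls. A log2 fold change of -0.10 was fitted (SE 0.17, 95% interval -0.49 to 0.29, adjusted p 1 in edgeR). It turned to 0.07 without control replicate 2. Of the summed TPM of the 3 catalytic genes of protein phosphatase 1, Ppp1cb made up 31.9% ± 4.43 in control and 32.8% ± 4.66 in RhoA het (SD, n = 4 each). Ppp1ca was the larger part of that sum in every library, at 245 to 421 TPM. Adjusted over the 3 shares tested (Myh10, Myl9 and Ppp1cb), the exact permutation p was 0.886 for each. Ppp1cb exceeded Ppp1r12a in TPM by 3.51-fold in control replicate 2 and by 1.31-fold in RhoA het replicate 8, the extremes of the 8 libraries.

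Over the whole set, 0 of 11 member identifiers passed an adjusted p of 0.05 in edgeR, as did 0% of all 15660 tested genes. At an unadjusted p under 0.05 there were also 0 of 11, beside 2.38% of all tested genes (1.68% higher and 0.696% lower). In the fit with replicate number as a block 0 of 11 passed the adjusted threshold, beside 0.0127% of all genes. At an unadjusted p under 0.05 that fit gave 1 of 11, Ppp1r12a (log2 fold change 0.35, p 0.018, adjusted p 0.819 in edgeR), beside 5.26% of all genes. DESeq2 and limma-voom called 0 members as well. By sign alone 6 were higher in RhoA het and 5 lower, where 49.9% of all tested genes were higher. Their median log2 fold change was 0.11, beside -0.00 over all tested genes. For 0 of 11 did the groups fail to overlap, beside 1.81% of all tested genes. The intervals bound what could be missed. For Myh9, Myl12a and Ppp1cb they stayed within 0.50 on the log2 scale in either direction, whereas those of Myl9 and Mylk reached 2.25 and 2.22.

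**Figure D5:**
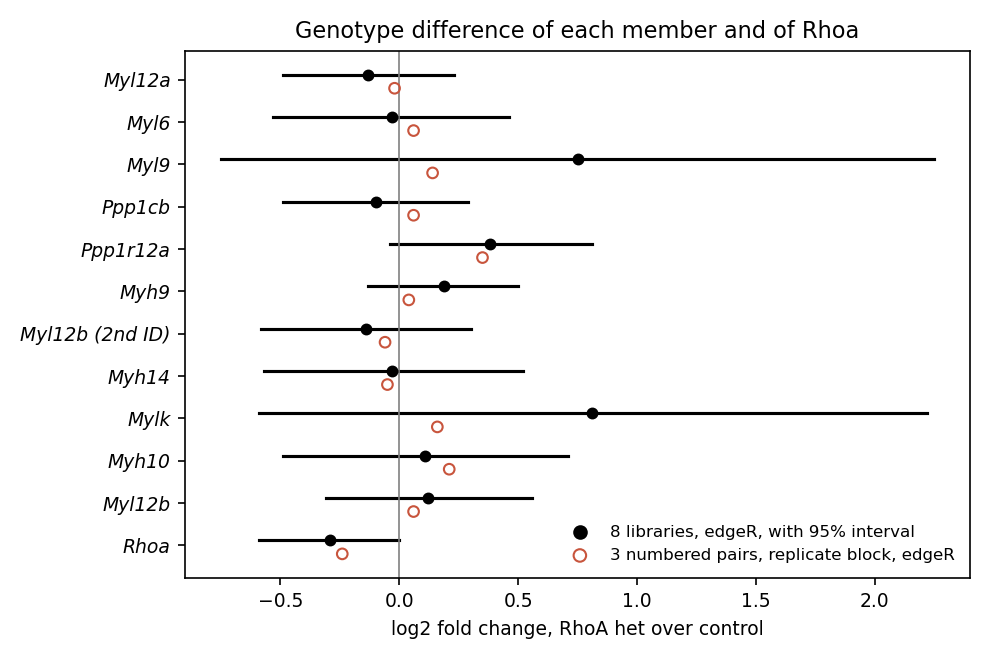
Log2 fold change of RhoA het over control for each member and for Rhoa, from all 8 libraries in edgeR (filled, with the 95% interval) and from the 3 numbered pairs with the replicate number as a block (open). The open symbols of Myl9 and Mylk, at 0.14 and 0.16, lie far below the filled ones at 0.75 and 0.81.

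Rhoa itself, the targeted gene, was at 132, 148, 121 and 136 TPM in control and 117, 111, 112 and 125 TPM in RhoA het. Its log2 fold change of -0.29 (SE 0.13) had an unadjusted p of 0.0495 and an adjusted p of 1 in edgeR, and its CPM ranges overlapped. The part of the gene that the floxed allele removes is not given in the sources used here.

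Around the 10 members, 47 other genes of the pathway were listed as light chain kinases, phosphatase genes or filament partners, and 42 were tested. In edgeR 0 of 42 passed at an adjusted p of 0.05, and 0 at an unadjusted p under 0.05, beside 0% and 2.38% of all tested genes. By sign 27 were higher and 15 lower in the RhoA het libraries, where 49.9% of all tested genes were higher. With the block 1 of 42, Mylk2, had an unadjusted p under 0.05 and 0 passed the adjusted threshold, beside 5.26% and 0.0127% of all genes. The median of their log2 fold changes was 0.08. The smallest unadjusted p among those higher belonged to Shroom2, an actin-binding partner of ROCK, Ppp1r12b, a paralogue of Ppp1r12a, and Mylk2, the light chain kinase of skeletal muscle. Their log2 fold changes were 0.67 (SE 0.35), 0.55 (SE 0.29) and 0.89 (SE 0.47). On the other side were Ppp1ca at -0.14 (SE 0.16), the kinase gene Pak1 at -0.23 (SE 0.28) and Actn1, which crosslinks actin, at -0.20 (SE 0.26). None of the 6 passed the threshold.

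Mylk2 ran unlike Mylk. It was at 26.3, 9.62, 9.93 and 6.95 CPM in control and 19.2, 44.9, 17.6 and 15.8 CPM in RhoA het, overlapping only through control replicate 2. Each numbered pair was higher in RhoA het. In the blocked fit of the 3 pairs its log2 fold change was 0.98, with an unadjusted p of 0.000139 and an adjusted p of 0.128 in edgeR, so it did not pass there either. While Mylk2 was higher in each pair, the summed level of muscle fibre markers was lower in each. The 12 listed markers summed to 535, 244 and 98.7 CPM in control replicates 5, 7 and 8 and to 222, 81.6 and 57.0 CPM in the RhoA het libraries of the same numbers. The unpaired libraries were at 89.5 CPM (control replicate 2) and 507 CPM (RhoA het replicate 6), so the groups overlapped. In the fit of all 8 libraries 0 of 12 passed (0 at an unadjusted p under 0.05). With the block, which takes the numbers as pairs and leaves out both unpaired libraries, 2 of 12 passed in edgeR. They were the actin gene Acta1 (log2 fold change -1.32, adjusted p 0.0275) and the calcium pump gene Atp2a1 (-1.40, adjusted p 0.0349). At an unadjusted p under 0.05 that fit had 10 of 12 lower, beside 5.26% of all genes in either direction. Acta1 and Atp2a1 were the 2 genes that the blocked fit called over the whole table. Neither call held in a limma-voom fit that kept all 8 libraries and let same-numbered ones correlate. At the estimated correlation of 0.481 that fit called 0 genes.

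The sarcomeric myosin genes, the striated muscle relatives of the members, shared 4 genes with that list, and their summed level was also lower in each pair. They summed to 129.5, 60.6 and 25.7 CPM in control replicates 5, 7 and 8 and to 66.6, 25.2 and 18.6 CPM in the RhoA het libraries of the same numbers. Control replicate 2 was at 28.7 CPM and RhoA het replicate 6 at 92.1 CPM. In the fit of all 8 libraries 0 of 7 tested passed (0 at an unadjusted p under 0.05). With the block 0 of 8 tested passed in edgeR. At an unadjusted p under 0.05, beside 5.26% of all genes in either direction, 6 of 8 were lower. Among them were the light chain genes Mylpf (-1.36, p 2.57e-05, adjusted p 0.0834) and Myl1 (-1.29, p 0.000167, adjusted p 0.138), and the heavy chain gene Myh4 (-1.21, p 0.000856, adjusted p 0.343), named after their values were seen. The part of muscle fibre RNA in the values of the members was not tested.

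The ROCK genes were level. Rock1 was at 86.2 to 99.8 CPM in control and 91.7 to 119.6 CPM in RhoA het (log2 fold change 0.15, SE 0.12), and Rock2 at 117 to 169 and 129 to 196 CPM (0.04, SE 0.17). These and the next genes are named for their roles after their values were seen. Anln and Cit, which act with myosin II at the cleavage furrow, were highest in the replicates 5, as Myh10 was. Anln was at 38.2 and 26.2 CPM there against at most 3.71 CPM elsewhere, and Cit at 14.9 and 12.9 CPM against at most 7.46 CPM. Tpm2, a tropomyosin gene, was at 116, 117 and 200.4 CPM in control replicate 8 and RhoA het replicates 6 and 8 and at most 76.5 CPM elsewhere, the libraries in which Myl9 and Mylk were high.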

How the data were processed

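RNA of 8 libraries of sorted muscle stem cells was sequenced from cDNA made by template switching. Per the file headers, the authors' counts are whole fragments per gene from featureCounts 1.6.4, run on read pairs over exons of GENCODE mouse release 34 on mm39, with no option set for strand, multi-mapping or overlapping genes. The submitters' processing notes also name cutadapt, STAR and DESeq2. The deposited TPM values equalled counts per gene length scaled per library (largest relative difference 2e-14). The command named 10 alignment files, of which the table's 8 were used.

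Symbols were matched by identifier to GENCODE release M21 (51884 of 57180 genes). Totals were 19138763 to 25606342 fragments a library. Genes passing filterByExpr were TMM-scaled and tested in edgeR 4.0.16 (quasi-likelihood, R 4.3.3, all 8 libraries, no covariate), with Benjamini-Hochberg adjustment over all 15660 genes and a threshold of 0.05. Log2 CPM used a prior count of 2. Single values had a two-sided exact permutation test over 70 assignments, whose smallest p is 0.0286. The test was also run on simulated counts, whose outcome is not reported here.

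The titles give replicate numbers 5, 7 and 8 to both groups. Deviations from the group means correlated at 0.574, 0.349 and 0.50 between same-numbered libraries. Between the others they correlated at -0.452 to 0.0119, values that centring on 3 libraries per group pushes down. What the numbers stand for is not stated. Pairing by number is therefore an assumption drawn from these same data. A further fit made that assumption and held the number as a block. Alternatives covered scaling, filters, DESeq2 1.42.0, limma 3.58.1 on counts and TPM, the block, and leaving libraries out. Members and lists were chosen with earlier results of these data known. Named genes were the members, Rhoa, the 3 pathway genes per direction with the smallest p, and the 3 nearest patterns of Myh9, Myh10, Myl9 and Mylk among genes with an SD at least 0.5 times theirs; others are said to be chosen after their values were seen.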

Additional observations from a re-analysis of the deposited data

Results flagged for a closer look

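Among 50 checks of a library standing apart from the other 3 of its group, 4 passed the 95% critical value of Dixon's ratio, where chance gives about 2.5. Myh14 in control replicate 2 was at 4.80 log2 CPM, below 5.51 to 5.55 in the other control libraries. The second Myl12b identifier in RhoA het replicate 7 was at 2.87 log2 CPM, below 3.26 to 3.31 in the other RhoA het libraries. RhoA het replicate 6 was high for the mean of the endothelial markers, at 5.75 log2 CPM against 2.78 to 3.07, and for the mean of the immune markers, at 3.24 log2 CPM against 0.88 to 1.23.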

How the results depend on the processing

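No member passed an adjusted p of 0.05 under any of 20 alternatives each (lowest 0.819), and 32 of 220 member values changed direction. The replicate block over the 3 pairs raised the count of genes called over the whole table from 0 to 2 (Acta1 and Atp2a1, markers of muscle fibres), with 0 members among them. With the block as a random effect over all 8 libraries the count was 0. No other alternative changed a call. Under the block over the pairs the log2 fold changes of Myl6 and Ppp1cb turned to 0.06 and 0.06, on the same 6 libraries without the block to 0.05 and 0.05, and with the block as a random effect Myl6 turned to 0.02. On log2 TPM with a pseudocount of 1 or 0.1, Myh14 turned to 0.03 and 0.03, Myl6 to 0.07 and 0.07, and Ppp1cb to 0.01 and 0.01. Myl6 was 0.04 with total counts, and Myh14 was 0.05 with voom quality weights. Without the 3 libraries highest in Myh11, Myh14 was 0.20, Myl9 -0.34, Myl12b -0.03 and Mylk -0.35. The causes were not tested.

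Leaving out each library in turn, the log2 fold change ranged from -0.11 to 0.37 for Myh10, -0.21 to 0.14 for Myh14, -0.18 to 0.09 for Myl6, -0.10 to 1.34 for Myl9, -0.22 to 0.02 for Myl12a, -0.23 to 0.01 for the second Myl12b identifier and -0.21 to 0.07 for Ppp1cb. The difference in share, in percentage points, ranged from -1.97 to 1.58 for Myh10, -0.628 to 15.2 for Myl9 and -1.01 to 2.74 for Ppp1cb. Myh9 and Ppp1r12a kept their sign under all 20 alternatives. Myh9 nevertheless fell from 0.19 to 0.04 with the block over the pairs. It was 0.03 on the same 6 libraries without the block, and 0.03 without the 3 libraries highest in Myh11. Myl12b rests on 113 to 150 fragments a library, which limits its precision.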
